A study of Arabidopsis thaliana with 6 samples.

Results

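A group of 9 loci of root triterpene metabolism was followed by RNA-Seq in roots of the ipt1,3,5,7 mutant of Arabidopsis thaliana, out of 33602 gene identifiers counted. They are 4 oxidosqualene cyclases, marneral synthase 1 (MRN1, AT5G42600), pentacyclic triterpene synthase 1 (PEN1, AT4G15340), baruol synthase 1 (BARS1, AT4G15370) and PEN3 (AT5G36150), and 5 cytochrome P450 genes that lie near them, CYP71A16 (AT5G42590), CYP705A12 (AT5G42580), CYP705A1 (AT4G15330), CYP716A1 (AT5G36110) and CYP716A2 (AT5G36140). The loci were chosen with results of this same comparison in view, so their changes are given as a description, with no p-value. The lists of other genes were also chosen with earlier results of these data known. Their counts and adjusted p-values are therefore a description too. Every plant carried mutations in ISOPENTENYLTRANSFERASE1, 3, 5 and 7, which encode enzymes that start cytokinin synthesis, and no wild-type library was analysed here. Seedlings 7 d old were moved on mesh to plates with 1 µM BAP (6-benzylaminopurine, a synthetic cytokinin) for 4 h or with the solvent DMSO for 1 h, with 3 libraries per group. Primary roots were cut below the hypocotyl, without root tips and lateral roots. Treatment and time since transfer changed together and cannot be told apart in any comparison below.

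Oxidosqualene cyclases fold the linear precursor 2,3-oxidosqualene into a ring system, and the enzyme decides which triterpene skeleton results. CYCLOARTENOL SYNTHASE1 (CAS1) makes the precursor of membrane sterols, whereas MRN1, PEN1, BARS1 and PEN3 make specialised triterpenes: marneral, arabidiol, baruol and tirucalladienol. In Arabidopsis many of these cyclase genes sit beside P450 genes whose products modify the same skeleton. CYP71A16 oxidises products of MRN1, and CYP705A12 belongs to the same cluster. CYP705A1 cleaves arabidiol in roots, which releases the volatile homoterpene DMNT. CYP716A1 and CYP716A2 belong to a P450 subfamily that oxidises pentacyclic triterpenes.

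The libraries held 19957748 to 20127269 counts, and levels are given as CPM (counts per 1000000 counts of the library, scaled for composition by TMM). A single read was worth 0.0497 to 0.0501 CPM before this scaling. Of 20987 genes with enough counts to be tested, 22.9% were called between 4 h BAP and 1 h DMSO, 11.6% higher and 11.4% lower under BAP, with an edgeR adjusted p no higher than 0.05 and an absolute log2 fold change no smaller than 0.5. The groups held no overlapping CPM values for 51.4% of the tested genes. Of the cell type markers examined, root hair genes summed to 40.9 to 122.8 CPM under DMSO and 105.5 to 130.8 CPM under BAP. Root tip genes were detected although the pieces are described as without root tips. They summed to 22.9 to 26.6 CPM under DMSO and 18.9 to 26.1 CPM under BAP. Phloem genes summed to 52.5 to 67.7 CPM under DMSO and 80.3 to 113.3 CPM under BAP, endodermis genes to 120.7 to 150.2 CPM and 96.7 to 112.2 CPM, and shoot genes to 22.9 to 28.4 CPM and 29.1 to 80.6 CPM, with the highest shoot value in BAP 3. The sums of these last 3 lists did not overlap between the groups, and their part in the results was not tested. Of the single markers COBL9 (root hair), SUC2 (phloem), RBCS1A and CAB1 (shoot) were called higher, SCR and MYB36 (endodermis) and PLT2 (root tip) were called lower, none was at 0 in all libraries, and no marker of the non-hair epidermis, cortex or xylem was called. Without BAP 3 the counts of called loci given below were the same. In RNA from root pieces of many cell types, fewer cells of a type and less RNA per cell cannot be told apart.

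All 9 loci had enough counts to be tested. At 4 h BAP 7 of them were called higher and 1 lower, and for 8 the groups did not overlap, as the plot of CPM by library shows. PEN1 was the locus that was not called. The median log2 fold change of the 9 was 1.34, against 0.00 over all tested genes, and the changes ran from -1.96 for CYP705A1 to 4.04 for CYP716A2. These counts describe loci chosen from the same contrast, and nothing is read from them against the background shares.

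**Figure D1:**
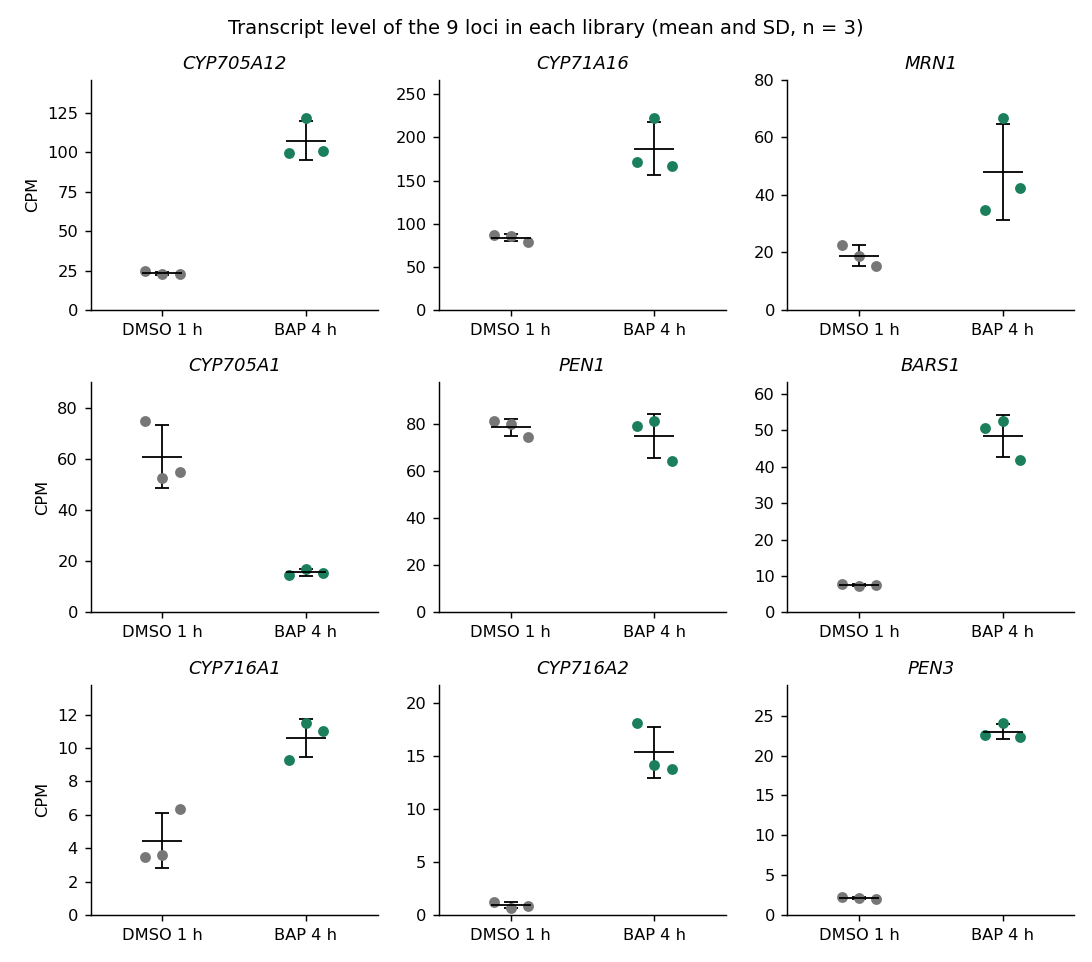
Transcript level (CPM, linear axes from 0, a scale per gene) of the 9 loci in 3 DMSO 1 h libraries (grey) and 3 BAP 4 h libraries (green), points in replicate order, with the mean and SD as black bars, and 1 row of panels per cluster. CYP705A1 is the panel with the higher DMSO points, and PEN1 is the panel in which the groups overlap.

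The marneral cluster lies on chromosome 5 of TAIR10 and holds, in order, CYP705A12 (17023646-17025229, minus strand), CYP71A16 (17031111-17033726, minus) and MRN1 (17053517-17058245, plus). MRN1, the cyclase, was at 22.6, 18.8 and 15.4 CPM in the DMSO libraries and at 34.8, 66.7 and 42.3 CPM in the BAP libraries. Every BAP value lay above every DMSO value, and BAP 2 stood well above the other BAP libraries. The means were 18.9 ± 3.64 and 47.9 ± 16.7 CPM (SD, n = 3), with a log2 fold change of 1.34 ± 0.24 (SE), which ranged from 1.03 to 1.53 when each library was left out in turn.

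CYP71A16, which encodes the marneral oxidase, was the most abundant of the 9 loci per length in both groups. It had 86.8, 85.2 and 79.1 CPM under DMSO and 171.4, 222.3 and 166.9 CPM under BAP, with no overlap and again the highest value in BAP 2. Its log2 fold change was 1.16 ± 0.11 (SE). The P450 gene CYP705A12 had the largest change of the cluster, with 24.5, 22.8 and 22.8 CPM under DMSO and 99.3, 121.7 and 101.0 CPM under BAP. Its DMSO values were nearly equal and lay far below the BAP values, and the log2 fold change was 2.20 ± 0.09 (SE), a 4.59-fold difference.

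The 3 genes of the marneral cluster thus differed in the size of their change. Within each library the reads of CYP705A12 came to 0.282, 0.268 and 0.288 of those of CYP71A16 under DMSO and to 0.579, 0.548 and 0.606 under BAP, so that this ratio, which does not depend on library scaling, was 2.07 times as high under BAP. The ratio of MRN1 to CYP71A16 overlapped between the groups, at 0.225 ± 0.0335 under DMSO and 0.252 ± 0.0485 under BAP (SD, n = 3). On the per-length scale (RPKM, CPM per kb of exon) MRN1 stood at 7.09 ± 1.36 under DMSO and 18.0 ± 6.26 under BAP, CYP71A16 at 45.3 ± 2.19 and 101.2 ± 16.7, and CYP705A12 at 13.2 ± 0.557 and 60.4 ± 7.03. In RPKM the cyclase was thus the lowest of the 3 in both groups.

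**Figure D2:**
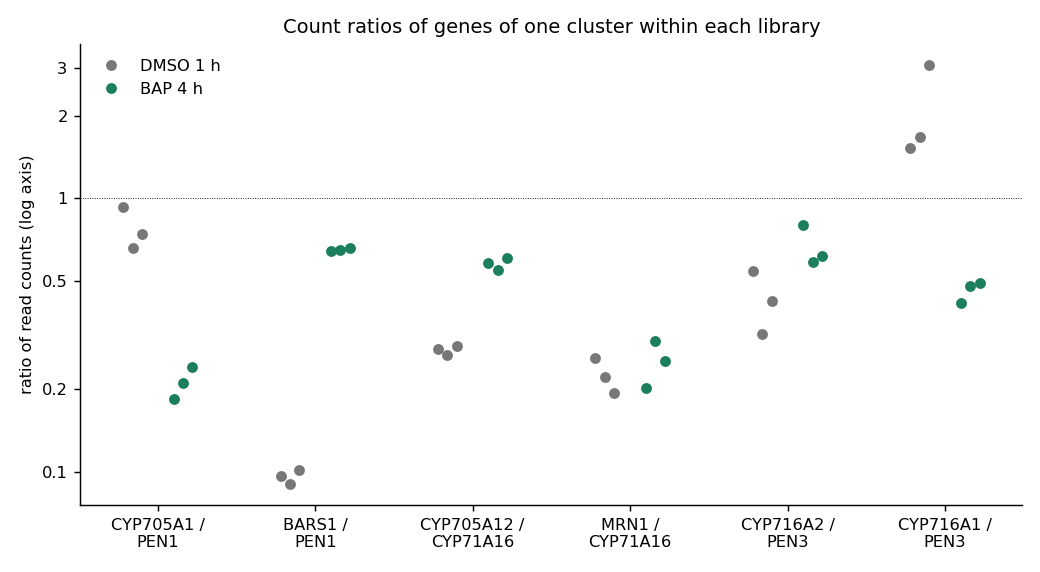
Ratio of read counts of a pair of genes from the same cluster (log axis) in each DMSO 1 h library (grey) and BAP 4 h library (green), points in replicate order. The groups overlap for MRN1 over CYP71A16 and do not for the other ratios; BARS1 over PEN1 moves from 0.0959 to 0.648 on average.

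On chromosome 4 the arabidiol and baruol genes showed 3 different patterns within 1 cluster. CYP705A1 (8751387-8753157), PEN1 (8754480-8760589) and BARS1 (8773786-8779685) all lie on the minus strand. CYP705A1 and PEN1 are 1322 bp apart with no gene between them, and PEN1 and BARS1 are 13.2 kb apart with 3 genes between them. CYP705A1 was lower under BAP, PEN1 was not called and BARS1 was higher under BAP.

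PEN1, which makes arabidiol, was at 81.0, 80.0 and 74.3 CPM under DMSO and at 79.1, 81.3 and 64.0 CPM under BAP. The groups overlapped, and BAP 3 was the lowest library. The log2 fold change was -0.07 ± 0.10 (SE), and it turned to 0.03 when BAP 3 was left out. CYP705A1, whose product cleaves arabidiol, was at 75.0, 52.7 and 54.9 CPM under DMSO and at 14.5, 17.1 and 15.4 CPM under BAP. All BAP values lay far below the lowest DMSO value, and DMSO 1 was the highest library. The mean level was 60.9 ± 12.3 CPM under DMSO and 15.7 ± 1.32 CPM under BAP (SD, n = 3), 3.88-fold higher under DMSO, with a log2 fold change of -1.96 ± 0.14 (SE) that ranged from -2.06 to -1.79 when each library was left out.

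BARS1, the baruol synthase, was at 7.82, 7.18 and 7.53 CPM under DMSO and at 50.7, 52.7 and 42.0 CPM under BAP. The DMSO values were nearly equal and the BAP values far above them. The log2 fold change was 2.69 ± 0.11 (SE), a 6.44-fold difference. In RPKM, PEN1 stood above BARS1 in both groups, at 29.7 ± 1.36 against 3.22 ± 0.138 under DMSO and at 28.4 ± 3.57 against 20.7 ± 2.45 under BAP (SD, n = 3).

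The same reads can be written as count ratios within the libraries, in which the scaling cancels, so the ratios restate the values above. BARS1 had 0.0966, 0.0898 and 0.101 reads per PEN1 read under DMSO and 0.640, 0.648 and 0.655 under BAP, where the 3 libraries were close to each other. CYP705A1 had 0.926, 0.659 and 0.739 reads per PEN1 read under DMSO and 0.184, 0.211 and 0.241 under BAP. Neither ratio overlapped between the groups. PEN1 and BARS1 encode proteins of 766 and 759 residues with 84.0% identity over the aligned residues in RefSeq, the closest pair among the 4 cyclases. Of the 31-base words in the exons of the 9 loci, between 0.0579% (CYP71A16) and 3.87% (CYP716A1) also occurred elsewhere in the nuclear genome. The values were 1.69% for PEN1 and 2.56% for BARS1.

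The windows of 250 bases upstream of the RefSeq gene starts are shown for the 3 genes of this cluster, since neighbours there differed in their change, and for PEN3, the cyclase with the largest change among the 4. They come from RefSeq TAIR10.1, each is written 5′ to 3′ on the minus strand that the gene is read from, and its last base lies next to the gene start. Capitals mark AGATT, a core sequence bound by type-B ARABIDOPSIS RESPONSE REGULATORs (ARRs, transcription factors of cytokinin signalling), or its complement AATCT. The windows are chr4:8753298-8753547 (CYP705A1), chr4:8760601-8760850 (PEN1), chr4:8779686-8779935 (BARS1) and chr5:14226212-14226461 (PEN3).
CYP705A1: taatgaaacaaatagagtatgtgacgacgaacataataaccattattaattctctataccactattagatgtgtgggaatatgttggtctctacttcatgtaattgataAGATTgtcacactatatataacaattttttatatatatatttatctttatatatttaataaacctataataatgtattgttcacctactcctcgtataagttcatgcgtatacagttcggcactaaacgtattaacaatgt
PEN1: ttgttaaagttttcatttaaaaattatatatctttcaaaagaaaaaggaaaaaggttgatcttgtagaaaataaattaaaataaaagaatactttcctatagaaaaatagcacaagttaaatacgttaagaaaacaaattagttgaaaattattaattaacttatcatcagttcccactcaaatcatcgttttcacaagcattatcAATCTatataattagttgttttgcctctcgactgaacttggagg
BARS1: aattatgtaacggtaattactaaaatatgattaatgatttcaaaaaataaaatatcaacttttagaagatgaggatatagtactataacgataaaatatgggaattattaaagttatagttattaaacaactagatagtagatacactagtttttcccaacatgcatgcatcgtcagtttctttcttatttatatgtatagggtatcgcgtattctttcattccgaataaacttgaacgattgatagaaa
PEN3: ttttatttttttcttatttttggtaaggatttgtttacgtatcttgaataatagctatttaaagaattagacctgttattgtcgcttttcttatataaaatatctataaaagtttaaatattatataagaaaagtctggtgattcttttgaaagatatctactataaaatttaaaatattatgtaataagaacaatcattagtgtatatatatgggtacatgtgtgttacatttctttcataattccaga
AGATT was searched on both strands. CYP705A1 and PEN1 each held 1 match, at -141 and -44 from the gene start, and the windows of BARS1 and PEN3 held none. The RefSeq start of PEN3 is at 14226211, whereas the counted gene model starts at 14225422 on this strand. The bases between these starts were not searched. Over the 9 loci 5 windows held a match, those of MRN1, PEN1, CYP705A1, CYP716A1 and CYP716A2, against 63.7% of 27443 windows of the same length over the genome. CACGTG, the G-box, was in none of the 9 windows and in 6.49% of all windows. These matches are a description of the letters in these windows.

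PEN3 and the CYP716A genes lie on chromosome 5 as CYP716A1 (14195377-14197613, plus strand), CYP716A2 (14212212-14213259, minus) and PEN3 (14220737-14225422, minus). They held the 2 largest changes of the 9 loci. PEN3, the tirucalladienol synthase, had 46, 44 and 43 reads under DMSO and 436, 462 and 448 reads under BAP. In CPM these were 2.28, 2.12 and 2.06 against 22.6, 24.1 and 22.4, with little spread in either group. The log2 fold change was 3.41 ± 0.10 (SE), a 10.7-fold difference, and it stayed between 3.37 and 3.44 when each library was left out.

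CYP716A2 had 25, 14 and 18 reads under DMSO and 349, 270 and 276 under BAP. BAP 1 was the highest library, and no DMSO library came near the BAP values. Its log2 fold change of 4.04 ± 0.21 (SE), 16.5-fold, was the largest of the 9 loci, and 53 of the 20987 tested genes had a higher one. The gene model of CYP716A2 codes for 318 residues, shorter than the 477 of CYP716A1, with 82.4% identity over the aligned residues.

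CYP716A1, whose product is known to oxidise amyrin-type triterpenes, had 70, 74 and 132 reads under DMSO and 180, 220 and 220 under BAP. DMSO 3 stood above the other DMSO libraries but below each BAP library. The log2 fold change was 1.25 ± 0.22 (SE) and was 1.57 without DMSO 3. Per PEN3 read there were 1.52, 1.68 and 3.07 reads of CYP716A1 under DMSO and 0.413, 0.476 and 0.491 under BAP. Per length the order of these genes turned around between the groups, with CYP716A1 at 2.63 ± 0.962 RPKM and PEN3 at 0.878 ± 0.0452 RPKM under DMSO, against 6.26 ± 0.674 and 9.39 ± 0.400 RPKM under BAP (SD, n = 3).

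The genes around the 9 loci were examined next, with the 5 genes on each side of each cluster. Of these 37 neighbours 18 could be tested. Of the 18, 9 were called higher and 3 lower, against 11.6% and 11.4% of all tested genes. The median log2 fold change of the 18 was 0.53. Without DMSO 2 the count of lower neighbours was 5 and that of higher neighbours 7. Without BAP 2 these counts were 4 and 7. Around PEN3 all 5 neighbours that could be tested were higher under BAP, 1 between the loci and 4 beside PEN3. AT5G36130, annotated as a P450 and adjacent to CYP716A2, rose from 0.534 ± 0.143 to 6.56 ± 0.151 CPM (SD, n = 3), with a log2 fold change of 3.60 ± 0.20 (SE, edgeR adjusted p = 4.55e-06). Some exon words of CYP716A1 also occur in AT5G36130 and in CYP716A2. The serine carboxypeptidase-like gene scpl1 (AT5G36180) rose from 13.5 ± 1.95 to 87.4 ± 9.56 CPM, with a log2 fold change of 2.69 ± 0.12 (edgeR adjusted p = 1.99e-06). AT5G36185, next to scpl1, had a log2 fold change of 2.24 ± 0.28 (edgeR adjusted p = 0.000412). Beyond CYP716A1 on the other side none of the 5 flanking genes had enough counts to be tested.

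Next to the arabidiol genes some neighbours were called higher and others lower. On the CYP705A1 side the cellulose synthase family gene ATCSLB05 had a log2 fold change of 2.17 ± 0.35 (edgeR adjusted p = 0.00168) and CSLB06 one of 1.56 ± 0.50 (edgeR adjusted p = 0.0382). CSLB06 was low, with 4, 7 and 10 reads under DMSO and 11, 32 and 16 under BAP. CYP705A2, a P450 gene between PEN1 and BARS1, rose from 3.57 ± 1.05 to 14.6 ± 0.868 CPM, with a log2 fold change of 2.03 ± 0.18 (edgeR adjusted p = 5.52e-05). CYP705A3, between the same cyclases, had a log2 fold change of 0.54 ± 0.21 and did not pass the test (edgeR adjusted p = 0.0801). On the far side of BARS1, CYP702A5 fell from 61.4 ± 3.76 to 21.3 ± 2.52 CPM, with a log2 fold change of -1.53 ± 0.10 (edgeR adjusted p = 9.18e-06). CYP702A6 beside it had a log2 fold change of -0.92 ± 0.17 (edgeR adjusted p = 0.00335), and the acyltransferase family gene AT4G15390 one of -0.60 ± 0.10 (edgeR adjusted p = 0.00162). Around the marneral genes 4 flanking genes were tested, and 1 was called, AT5G42620 with a log2 fold change of 0.52 ± 0.11 (edgeR adjusted p = 0.00689). The plot of change in gene order shows the loci together with these neighbours.

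**Figure D3:**
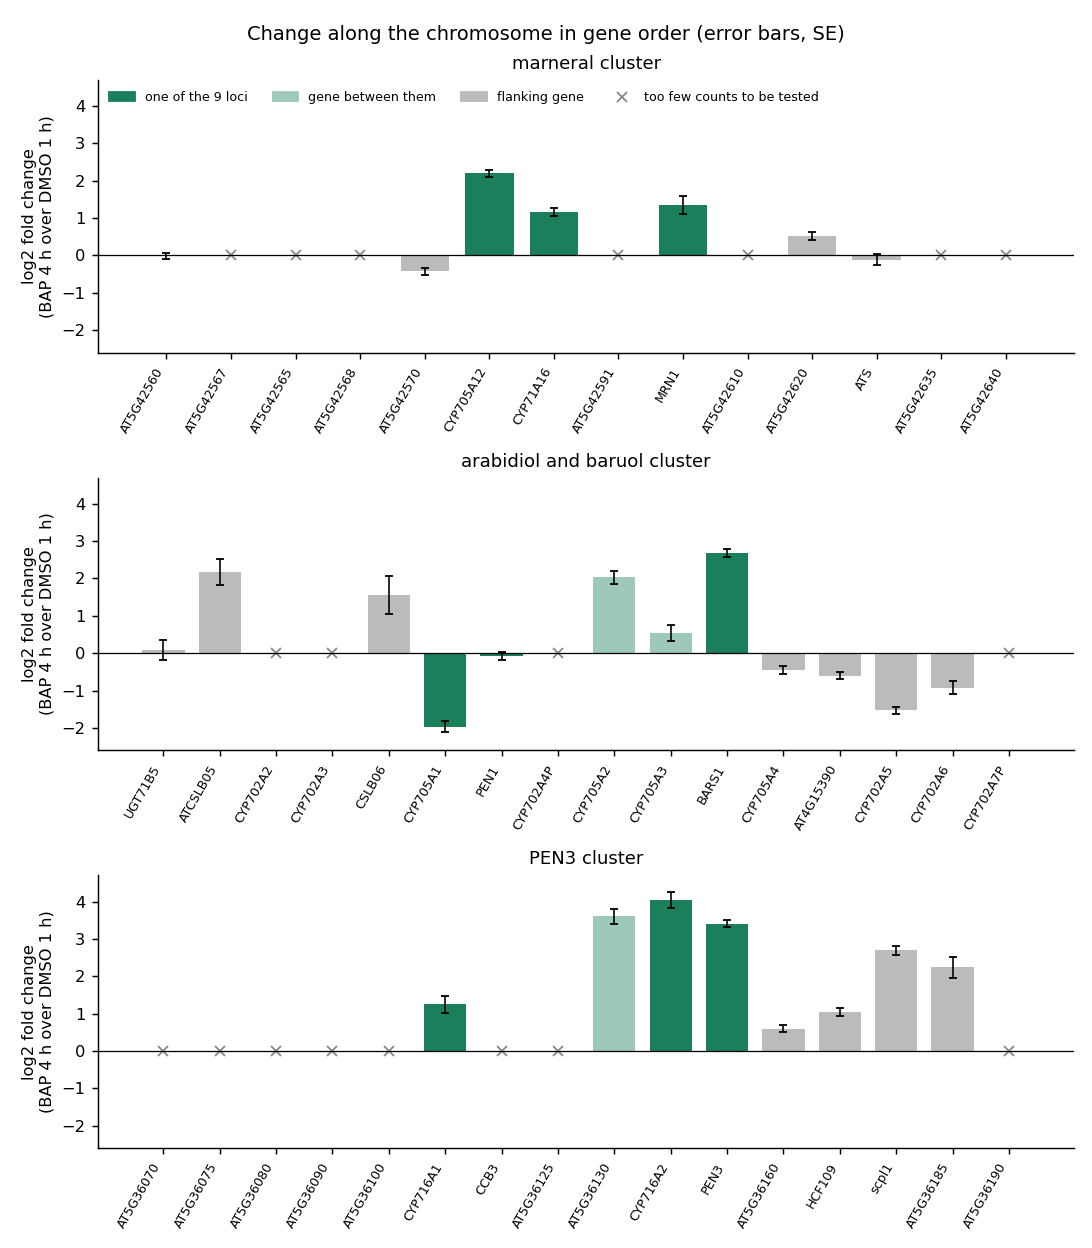
Log2 fold change (BAP 4 h over DMSO 1 h, error bars SE) of the genes of each cluster in the order of the chromosome, with the loci described here in dark green, genes between them in light green, 5 flanking genes on each side in grey, and crosses for genes with too few counts to be tested. In the middle panel CYP705A1 is at -1.96 and BARS1 at 2.69, with PEN1 at -0.07 between them.

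The 4 cyclases were then set beside a list of 10 other oxidosqualene cyclase genes of Arabidopsis, among them AT3G29255, which is annotated as putative. Of these 10, 5 were called higher and 0 lower, against 11.6% and 11.4% of all tested genes. The median log2 fold change of the 10 was 0.72. THAS1, the thalianol synthase, rose from 52.0 ± 15.7 to 1551.2 ± 172.3 CPM (SD, n = 3), with a log2 fold change of 4.90 ± 0.22 (SE, edgeR adjusted p = 2.03e-06). PEN6 (3.47 ± 0.20, edgeR adjusted p = 6.7e-06), the β-amyrin synthase gene BAS (2.41 ± 0.23, 9.38e-05) and AT3G29255 (1.47 ± 0.28, 0.00349), annotated as a putative pentacyclic triterpene synthase, also rose on the log2 scale. AT3G29255 was low, at 0.452 ± 0.116 CPM under DMSO and 1.26 ± 0.152 CPM under BAP (SD), and some exon words of PEN3 also occur in it. CAS1 rose from 102.5 ± 3.29 to 214.8 ± 11.7 CPM, with a log2 fold change of 1.07 ± 0.07 (edgeR adjusted p = 1e-05).

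The lupeol synthase gene LUP2 had a log2 fold change of -0.43 ± 0.09 (edgeR adjusted p = 0.00636), under the fold minimum. LAS1 (-0.61 ± 0.40), LUP1 (0.37 ± 0.30), CAMS1 (-0.39 ± 0.23) and LUP5 (-0.22 ± 0.25) were not called either, all at or under 3.61 CPM on average in each group. LUP2 was the 1 lower gene of the 10 at an unadjusted edgeR p under 0.05, DESeq2 called 0 lower, and without BAP 3 edgeR called 1 lower.

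Per length, the summed level of the 14 cyclases was 101.6 ± 7.13 RPKM under DMSO and 744.7 ± 70.5 RPKM under BAP (SD, n = 3). MRN1, PEN1, BARS1 and PEN3 together held 40.3 ± 2.09% of this sum under DMSO and 10.2 ± 0.671% under BAP. PEN1 alone went from 29.3 ± 1.77% to 3.80 ± 0.145% with almost no change in its own level, while THAS1 went from 19.1 ± 4.36% to 78.3 ± 1.73%. BARS1, despite its 6.44-fold higher level, held 3.17 ± 0.117% under DMSO and 2.78 ± 0.0756% under BAP. PEN3 went from 0.865 ± 0.0248% to 1.27 ± 0.089%. Shares of transcript level are not amounts of enzyme or product.

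**Figure D4:**
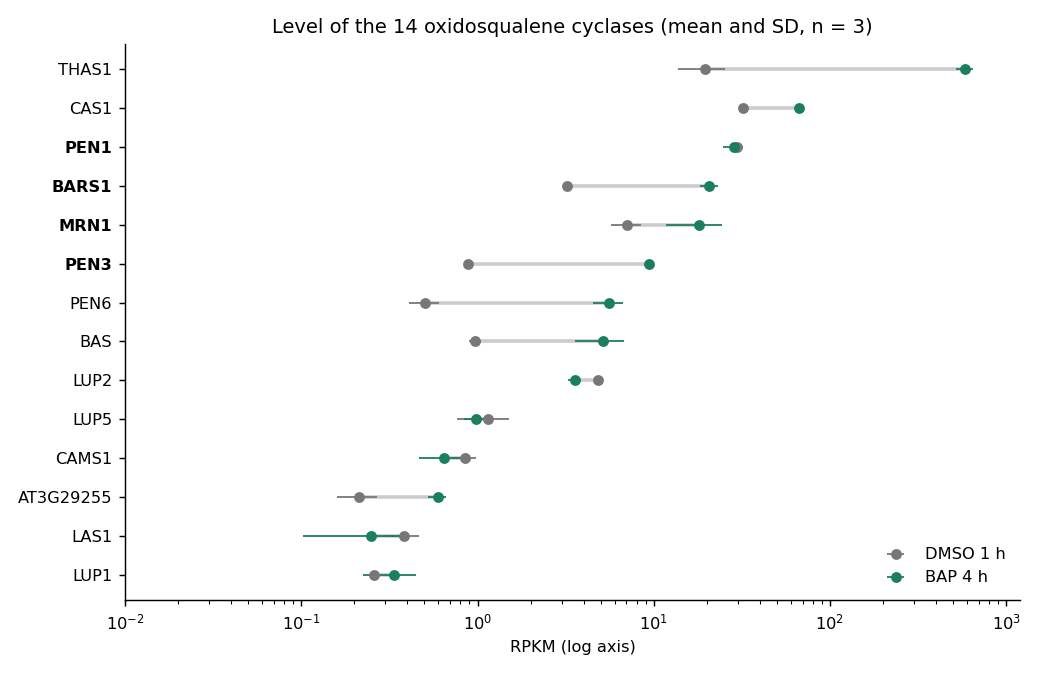
Transcript level per length (RPKM, log axis) of the 14 listed oxidosqualene cyclases, with the putative AT3G29255 among them. Values are under DMSO 1 h (grey) and BAP 4 h (green), as means with SD over 3 libraries, joined by a line per gene. PEN1 has nearly the same level in both groups, whereas BARS1, MRN1 and PEN3 move to the right by 6.44, 2.53 and 10.7 times.

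The genes that supply oxidosqualene were compared as a list of 20 enzymes from acetoacetyl-CoA to squalene epoxidation. Of these, 7 were called higher and 0 lower, against 11.6% and 11.4% of all tested genes. The median log2 fold change of the list was 0.32. HMG1, a 3-hydroxy-3-methylglutaryl-CoA reductase and the main control point of the mevalonate pathway, rose from 267.3 ± 20.2 to 814.6 ± 72.9 CPM, with a log2 fold change of 1.61 ± 0.10 (edgeR adjusted p = 7.85e-06). MVD1, a mevalonate diphosphate decarboxylase, rose by 1.25 ± 0.10 on the log2 scale (edgeR adjusted p = 2.99e-05). SQE1, which epoxidises squalene, rose by 1.17 ± 0.11 on the log2 scale (edgeR adjusted p = 7.43e-05) and SQE2 by 0.91 ± 0.10 (0.000206).

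The other squalene epoxidase genes were not called. The log2 fold change was -0.09 ± 0.11 for SQE3 and 0.36 ± 0.30 for SQE5. It was -0.24 ± 0.32 for SQE6 and 0.43 ± 0.28 for SQP2, a squalene monooxygenase gene (edgeR adjusted p = 0.252 to 0.599 over these 4 genes). Both squalene synthase genes, SQS1 (-0.18 ± 0.06) and SQS2 (-0.30 ± 0.17), and both farnesyl diphosphate synthase genes, FPS1 (-0.08 ± 0.07) and FPS2 (0.17 ± 0.08), were not called, with edgeR adjusted p = 0.0592 to 0.407. Of the mevalonate steps, AACT2 (0.36 ± 0.09, edgeR adjusted p = 0.0123), HMG2 (0.28 ± 0.06, 0.0093) and AT1G31910 (-0.11 ± 0.06, 0.202) were not called either, the first pair for being under the fold minimum. The called genes were HMGS, HMG1, MVK, MVD1, AT3G54250, SQE1 and SQE2. SQS1 was the 1 lower gene of the list at an unadjusted edgeR p under 0.05, and DESeq2 called 0 lower.

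Sterol synthesis, the use of oxidosqualene through CAS1, was compared as a list of 12 genes that act after cycloartenol. CAS1 itself, called higher with a log2 fold change of 1.07 ± 0.07, was not in this list. Of the 12 genes, 1 was called higher and 0 lower, against 11.6% and 11.4% of all tested genes. The median log2 fold change of the list was 0.07. The called gene was SMT2, a sterol methyltransferase, with a log2 fold change of 0.64 ± 0.07 (edgeR adjusted p = 0.000169). The sterol reductase gene DWF1 had a log2 fold change of 0.45 ± 0.08 (edgeR adjusted p = 0.00353), under the fold minimum. SMO1-1 (-0.17 ± 0.07) was the 1 lower gene at an unadjusted edgeR p under 0.05, and DESeq2 called 0 lower. Without DMSO 3 the count of higher genes was 2. The difference between the supply list and the sterol list was not tested.

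**Figure D5:**
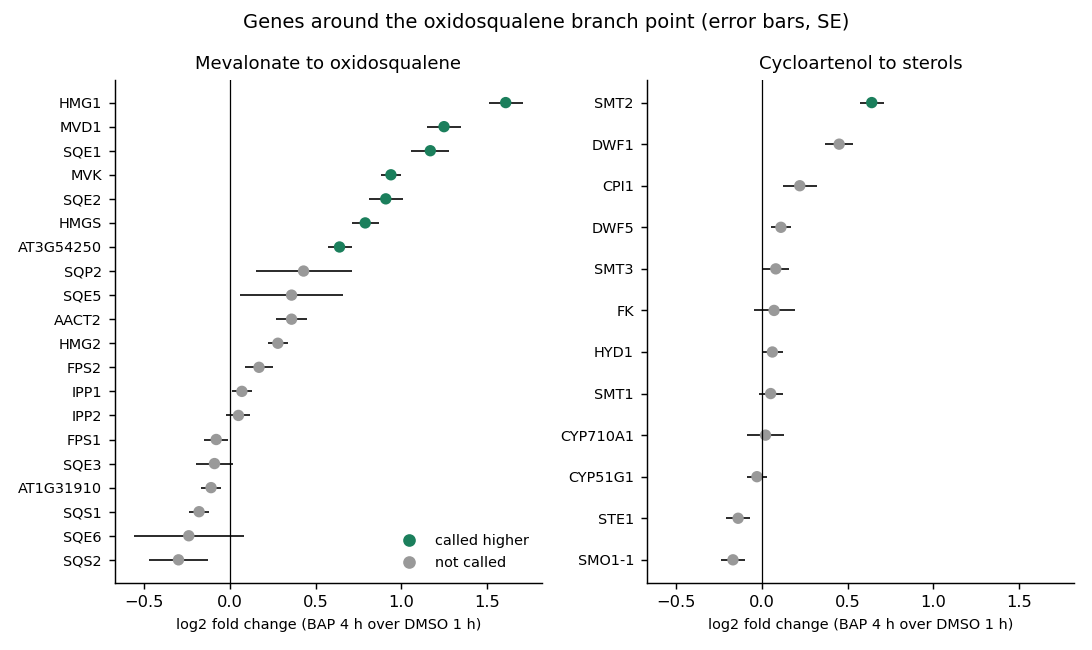
Log2 fold change (BAP 4 h over DMSO 1 h) with SE of 20 genes from acetoacetyl-CoA to oxidosqualene (left) and 12 genes of sterol synthesis after cycloartenol (right), genes called higher in green and the others in grey. HMG1, MVD1 and SQE1 lie above 1, and SMT2 is the only green point on the right.

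DMNT can also be made in leaves from geranyllinalool, by the synthase TPS04 and the P450 CYP82G1. TPS04 averaged 0.341 ± 0.132 CPM under DMSO and had 0 reads in each BAP library, which allows up to 3 counts per library or 0.150 to 0.157 CPM on the scaled library sizes. CYP82G1 had 0 reads in all 6 libraries. Neither had enough counts to be tested.

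For each of the 4 cyclases the 3 genes with the most similar pattern were looked up among 15964 tested genes of at least 5 CPM, by the root mean square (RMS) difference of mean-centred log2 CPM over the 6 libraries. BARS1 was closest to AT4G23420 (NAD(P)-binding protein, RMS difference 0.0372), the MATE efflux gene AT5G38030 (0.0450) and ARR4 (0.0762), a type-A response regulator of cytokinin signalling. ARR4 was at 45.3 CPM under DMSO and 282.1 CPM under BAP on average. PEN3 was closest to AT1G66800 (0.0820), the flavonoid sulfotransferase gene AT3G45070 (0.0843) and the expansin gene EXPB3 (0.0908). MRN1 was closest to the stress-responsive gene KIN1 (0.150), AT4G39320 (0.176) and the subtilase gene SBTI1.1 (0.199). PEN1 was closest to AT1G20225 (0.0252), AT1G64270 (0.0282) and AT4G06676 (0.0297), all of which also differed little between the groups. These distances describe 6 libraries of 2 groups and are not tests.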

How the data were processed

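Transcripts were measured by RNA-Seq in 6 root libraries, 3 DMSO 1 h and 3 BAP 4 h, grouped by their labels. The authors deposited raw counts of reads for each gene, 1 file per library, without normalization. Submitters' processing notes name FastQC, Bowtie2, HTSeq and TAIR10. Program versions, the strand setting and the handling of reads with several matches are not given in the sources used here. The library kit (TruSeq RNA v2) does not mark strand. The study's methods describe the 3 libraries of a group as biological replicates.

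Counts were tested with edgeR 4.0.16 (quasi-likelihood, R 4.3.3) with TMM scaling, filterByExpr (minimum count 10, minimum total 15), treatment as the only term and Benjamini-Hochberg adjustment over 20987 genes, while 12615 genes were too low. The fit was tested on simulated counts. Called genes had an adjusted p no higher than 0.05 and an absolute log2 fold change no smaller than 0.5. SEs were derived from the log2 fold change and the F statistic. Genes were named by rule: the 9 loci, cyclases, thalianol and leaf DMNT genes called or at 1 CPM or more, the 3 most changed called genes per direction of longer lists (supply, sterols, neighbours, and the P450 families CYP705A, CYP702A and CYP708A), squalene epoxidases, and the 3 genes most alike each cyclase (pseudocount 0.05 CPM). Other genes in the text were named after their values were seen. The loci, lists and cell type markers were chosen with earlier results of these data known.

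Symbols, exon lengths, proteins and upstream windows came from RefSeq TAIR10.1 (32835 identifiers matched, and 10599 had an identical start and end), read with Biopython 1.88 in Python 3.11.15. Gene coordinates are those of the files, counted from 1. For a count of 0 the limit is 3 counts (counting error only). Alternatives were DESeq2 1.42.0, DESeq2 size factors, upper-quartile factors, no filter beyond 1 read, the replicate number as a block, no fold minimum, a log2 fold minimum of 1, and leaving out each library.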

Additional observations from a re-analysis of the deposited data

How the results depend on the processing

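The 9 loci kept their direction and their side of the thresholds in 98 of 99 refits with another test, scaling, filter, replicate block or left-out library. The exception was PEN1, whose log2 fold change of -0.07 ranged from -0.13 to 0.03 (the latter without BAP 3) when each library was left out. Without 1 library at a time the loci called higher stayed at 7 to 7 and those called lower at 1 to 1. The other cyclases had 5 to 5 called higher and 0 to 1 lower (1 without BAP 3, and 1 with no fold minimum). The supply genes had 7 to 8 higher and 0 to 0 lower, and 3 higher with a log2 fold minimum of 1. The sterol genes had 1 to 2 higher (2 without DMSO 3) and 0 to 0 lower, with 2 higher without a fold minimum and 0 with a log2 fold minimum of 1. The cluster neighbours had 7 to 9 higher and 3 to 5 lower, with 5 lower without DMSO 2, without the low-count filter or without a fold minimum and 1 with a log2 fold minimum of 1. The P450 families had 15 to 16 higher and 3 to 5 lower, with 5 lower without DMSO 2 or without a fold minimum and 1 with a log2 fold minimum of 1. Over all genes leaving out a library gave 2200 to 2387 higher and 2107 to 2496 lower. The fold minimum moved these to 3887 and 4061 (none) or to 1099 and 1072 (log2 fold minimum of 1).

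Replicate numbers were not taken as pairs, since the labels do not state that a number marks a shared batch or day. The sample numbers in the titles do run in sets by replicate. Same-numbered libraries correlated at 0.212, 0.0508 and 0.291, and libraries with different numbers at -0.285 to 0.0664. BAP 2 correlated slightly better with DMSO 1 (0.0664) than with DMSO 2 (0.0508), while every other library correlated best with its own number. These correlations do not decide whether the libraries were paired. With the replicate block 2474 genes were called higher and 2455 lower, and of the loci 7 and 1, while the neighbours had 10 higher. No scaling moved the median log2 fold change of all genes by more than 0.0196.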

Other observations

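The P450 families CYP705A, CYP702A and CYP708A were listed without CYP705A1 and CYP705A12, and some of their genes were also among the cluster neighbours above. Of the 37 genes listed 31 could be tested. Of these 15 were higher, 3 lower and 13 not called by edgeR, against 11.6% higher and 11.4% lower over all tested genes, and the median log2 fold change was 0.54. In CYP705A, the family of CYP705A1 and CYP705A12, 12 of 25 tested genes were higher and 1 lower. All 3 CYP708A genes were higher, and in CYP702A 2 of 3 tested genes were lower and 0 higher by edgeR. Without DMSO 2 the count of lower genes over the 3 families was 5. The largest increases were those of CYP708A2 (4.45 ± 0.13 on the log2 scale, edgeR adjusted p = 3.37e-07), CYP705A5 (3.98 ± 0.15, 8.17e-07) and CYP705A14P (3.13 ± 0.22, 1.71e-05). CYP705A14P was low, at 0.517 ± 0.067 CPM under DMSO and 4.58 ± 0.718 CPM under BAP (SD). The decreases were those of CYP702A5, CYP702A6 and CYP705A13 (-0.62 ± 0.13, edgeR adjusted p = 0.00666). 

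CYP708A2 and CYP705A5 belong to the thalianol cluster, which makes a triterpene of its own in roots through THAS1. Its 5 genes were all called higher, against 11.6% of all tested genes. The log2 fold changes of the 5 ran from 2.28 to 6.19, with a median of 4.45. The largest was that of the acyltransferase family gene AT5G47980, from 6.57 ± 1.96 to 479.9 ± 59.7 CPM (SD, n = 3, edgeR adjusted p = 6.09e-07), and the smallest that of AT5G47950, from 23.9 ± 6.21 to 116.5 ± 13.3 CPM (2.44e-05). The log2 fold changes of the marneral genes, 1.16 to 2.20, lay below this range. The difference between the clusters was not tested.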
